A study of Mus musculus with 2 samples.

Results

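The peptide transporter gene Slc15a2, the ganglioside enzyme gene St8sia1, the glycan enzyme gene B3galt2, the ion channel genes Kcnc1 and Asic3 and the gene Mturn were read in leukocytes of mite-treated mouse skin. They are 6 of the 27998 genes counted in both libraries. They were chosen by name from an earlier comparison of the same 2 libraries, in which each had a lower level in T cells without the IL-31 receptor. The difference between the libraries in T cells is therefore given as a description. Their place among T cell types, their levels outside T cells and their detection together with Il17a were not what chose them. Reading the genes by T cell type and with Il17a was set when they were named, so these readings need not be independent of that choice.

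The libraries were IL31RAKO, whose C57Bl/6 mice carry a knockout of the alpha chain of the receptor for IL-31, and WT, from C57Bl/6 mice with that receptor; both received the same treatment. The labels do not give the deleted part of the gene, and Il31ra, read at its 3′ end, had 0.279 CPM in IL31RAKO T cells and 0 in WT T cells, which checks neither label. Shaved skin of the back of the neck received Biostir ointment, which holds the house dust mite D. farinae, for 3 weeks with 2 applications per week. A 2% SDS solution preceded every application by 2 hours. No untreated skin was sequenced among the libraries used here. Each library pooled the skin of 4 mice, digested for 2 hours and sorted for live CD45+ cells, which are leukocytes, so that there was 1 library per genotype and no replicate. Age and sex of the mice are not given in the labels. RNA was counted by droplet sequencing of 3′ ends as unique molecular identifiers (UMIs), each standing for 1 captured RNA molecule.

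The question the design poses is how inflamed skin differs when leukocytes and other cells cannot receive IL-31, a T cell cytokine known for causing itch. Skin T cells that make IL-17A, the type 17 cells, help to defend the surface and drive neutrophil inflammation, and both gamma-delta and CD8 T cells can do this in mouse skin. Gangliosides are sialic acid-bearing lipids of the cell surface that are built step by step by sugar-adding enzymes. Ion channels set the membrane voltage and ion flow of T cells, and proton-dependent transporters bring peptides into cells.

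Barcodes with 500 or more UMIs, 250 or more genes and under 10% mitochondrial UMIs were kept, which left 14619 IL31RAKO and 11934 WT cells with medians of 3181 and 2918.5 UMIs. The libraries held 71333292 UMIs in IL31RAKO and 57000499 in WT. Kept barcodes shared by both libraries numbered 247, 80 of them in IL31RAKO T cells and 127 in WT T cells. T cells were gated as cells with 2 or more UMIs of the CD3 genes Cd3d, Cd3e and Cd3g and with fewer UMIs of myeloid and stromal markers. They numbered 5130 in IL31RAKO (35.1% of cells) and 6046 in WT (50.7%), with median depths of 2802 and 2794 UMIs. Of the 10 T cell markers 5 were among the genes listed, with a sum of 5539 CPM in IL31RAKO and 6014 CPM in WT. That sum includes Cd3d, Cd3e and Cd3g, which set the gate and had 1194, 640 and 2431 CPM in IL31RAKO. It is therefore fixed in part by the gate and does not check it. T cell receptor genes were not used here. CPM are UMIs per 1000000 UMIs summed over all cells of a class. The 95% intervals in square brackets are for counting error alone. They hold no variation between mice, pools or cells, so no test between the genotypes was possible and no p-value is given.

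T cells were divided by markers into 7 gates. The dermal gamma-delta gate (2 or more UMIs of Cd163l1 and Blk) held 362 IL31RAKO and 887 WT cells, and the CD8 gate (Cd8a or Cd8b1 without Cd4 or Foxp3) held 1642 and 1810. No T cell receptor gene checked the name dermal gamma-delta. In that gate Cd163l1 had 758 CPM in IL31RAKO and 385 CPM in WT, Blk 420 and 465 CPM, and Foxp3 15.7 and 3.65 CPM. Whether the gate held the same cells in both libraries was not tested. The Cd7/Avil gate (2 or more UMIs of those genes) held 1389 and 1497. It had been meant for the T cells resident in the epidermis, but Avil was detected in 382 IL31RAKO and 591 WT cells of it, and it also held Cd8b1 at 360 and 240 CPM. It is therefore named by its genes. The Foxp3 gate held 273 and 180 cells, the CD4 gate 182 and 192, and a mixed gate with both CD8 and CD4 or Foxp3 UMIs 223 and 131. Other T cells, below all of these limits, numbered 1059 in IL31RAKO and 1349 in WT.

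T cells of either library could carry RNA of other cells, and the marker lists of those cells were summed in the T gate. All 7 macrophage markers were detected, with a sum of 312 CPM in IL31RAKO and 203 CPM in WT, and all 3 neutrophil markers, with 1133 and 189.7 CPM. The 4 dendritic cell markers summed to 84.9 and 55.1 CPM, the 2 Langerhans cell markers to 82.5 and 73.6 CPM and the 4 keratinocyte markers to 62.8 and 86.2 CPM. Of the 7 Schwann cell and nerve markers, Sox10 was at 0 in WT, and their sum was 31.6 CPM in IL31RAKO and 35.7 CPM in WT. Fibroblast markers summed to 50.3 and 49.5 CPM and mast cell and basophil markers to 37.0 and 15.6 CPM, and B cell, melanocyte and skeletal muscle markers to between 0.446 and 14.6 CPM. The part of these cells in the differences below was not tested. Free RNA was read from near-empty barcodes, those with at least 10 and at most 50 UMIs, and each of the 6 genes had between 0 and 7 UMIs there. A count of 0 allows up to 3 UMIs, which is 15.8 CPM in IL31RAKO and 12.7 CPM in WT, so free RNA below those levels was not detectable at this depth. St8sia1 had 36.8 CPM [14.8, 75.9] in the free RNA of IL31RAKO, from 7 UMIs, above its 14.3 CPM in T cells. Asic3 had 15.8 CPM [3.26, 46.1] there in IL31RAKO and 16.99 CPM [4.63, 43.5] in WT, above its 1.15 and 2.90 CPM in cells outside the T gate. The part of free RNA in the levels outside T cells was not tested.

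The genomic neighbourhood differs between the members. In mouse build GRCm38 (GENCODE vM21), Slc15a2 (ENSMUSG00000022899) lies on the minus strand of chromosome 16 from 36750177 to 36784962. St8sia1 (ENSMUSG00000030283) lies on the minus strand of chromosome 6 from 142821545 to 142964452, and Mturn (ENSMUSG00000038065) on the plus strand of the same chromosome from 54681624 to 54703851. B3galt2 (ENSMUSG00000033849) is on the plus strand of chromosome 1 from 143640664 to 143654614, Kcnc1 (ENSMUSG00000058975) on that of chromosome 7 from 46396497 to 46438704 and Asic3 (ENSMUSG00000038276) on that of chromosome 5 from 24413392 to 24417835. The span of Cdc73, on the opposite strand, overlaps an exon of B3galt2, and that of the antisense gene Gm28402 overlaps an exon of Mturn. The span of Gm7457, on the opposite strand, overlaps an exon of St8sia1. Gm7457 was not among the genes counted. Whether counting used the strand is not given in the sources used here, so the values of these 3 members are uncertain to that extent. Cdc73, a subunit of the PAF transcription complex, had 23.9 CPM in IL31RAKO T cells and 25.4 CPM in WT T cells, a ratio of 0.942 [0.827, 1.07]. Gm28402 had 0 UMIs in IL31RAKO T cells and 1 UMI in WT T cells.

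All 6 genes matched RefSeq promoter entries (GRCm38.p6), of which the 250 bases before RefSeq's start site were searched on both strands. That start differs from the GENCODE gene start for 3 members: 33 bases of the B3galt2 window and 59 of the Asic3 window lie in annotated exons, and the Kcnc1 window ends before the gene start given above. The motifs were AGGTCA, a motif of nuclear receptors, TGANTCA (AP-1), TTCNNNGAA (STAT) and TGACGTCA (the cyclic AMP response element), the last of which was added after the sequences had been seen. Slc15a2 is shown because it had the lowest ratio between the libraries, St8sia1 and Mturn because they were the members that held a match; capitals mark the matches, and each strand is that of the gene.

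Slc15a2, chr16:36784963-36785212, minus strand: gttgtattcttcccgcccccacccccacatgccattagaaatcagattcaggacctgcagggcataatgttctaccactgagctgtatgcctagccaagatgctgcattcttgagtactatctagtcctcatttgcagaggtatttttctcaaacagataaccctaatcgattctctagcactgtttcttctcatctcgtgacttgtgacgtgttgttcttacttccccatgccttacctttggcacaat

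St8sia1, chr6:142964453-142964702, minus strand: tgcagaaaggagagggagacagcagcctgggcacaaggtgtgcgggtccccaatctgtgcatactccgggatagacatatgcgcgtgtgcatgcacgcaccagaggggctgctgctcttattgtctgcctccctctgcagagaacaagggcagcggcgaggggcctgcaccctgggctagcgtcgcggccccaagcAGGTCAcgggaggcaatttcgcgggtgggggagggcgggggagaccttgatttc

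Mturn, chr6:54681374-54681623, plus strand: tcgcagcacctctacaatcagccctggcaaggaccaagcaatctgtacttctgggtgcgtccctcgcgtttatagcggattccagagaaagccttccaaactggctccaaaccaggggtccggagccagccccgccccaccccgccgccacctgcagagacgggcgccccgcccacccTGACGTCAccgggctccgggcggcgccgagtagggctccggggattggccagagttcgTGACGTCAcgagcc

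St8sia1 held 1 AGGTCA, a motif found in 14.02% of the 32851 promoter windows of the same length. Mturn held 2 copies of TGACGTCA, a motif found in 1.55% of windows. TGANTCA was found in 6.75% and TTCNNNGAA in 7.02% of windows, and in none of the 6. The windows of Slc15a2, B3galt2, Kcnc1 and Asic3 held none of the 4 motifs. A match describes the letters and is no evidence of binding.

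The name of the group as T cell genes fitted 4 of its 6 members. Asic3, which encodes an acid-sensing sodium channel known from sensory neurons, had 14.8 CPM in T cells and 1.15 CPM outside the T gate in IL31RAKO, a ratio of 12.8 [9.47, 17.8], and 23.5 and 2.90 CPM in WT, a ratio of 8.13 [6.35, 10.5]. Kcnc1, which encodes the fast voltage-gated potassium channel Kv3.1 known from neurons, was 9.28 [6.12, 14.5] times as high in T cells as outside the gate in IL31RAKO and 9.29 [5.99, 15.0] times in WT. B3galt2, which encodes a beta-1,3-galactosyltransferase, had ratios of 4.24 [2.70, 6.77] in IL31RAKO and 5.51 [3.58, 8.79] in WT. Mturn, which encodes maturin, a protein known from differentiation of neural progenitors in the frog, had ratios of 4.33 [3.59, 5.23] and 5.70 [4.70, 6.96]. These 4 genes were thus mainly T cell genes in both libraries.

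Slc15a2 and St8sia1 were not. Slc15a2, which encodes the proton-coupled peptide transporter PEPT2, had 2.62 CPM in T cells and 2.19 CPM outside in IL31RAKO, a ratio of 1.20 [0.827, 1.72], and 7.54 and 6.93 CPM in WT, a ratio of 1.09 [0.872, 1.36]. St8sia1, which encodes the sialyltransferase that makes the ganglioside GD3, had 14.3 CPM both in T cells and outside in IL31RAKO, a ratio of 1.00 [0.863, 1.16]. In WT it had 22.8 CPM in T cells and 19.5 CPM outside, a ratio of 1.17 [1.03, 1.33]. T cells held 33.1% of the Slc15a2 UMIs of IL31RAKO cells and 46.8% of those of WT cells, against 84.1% and 86.8% of the Asic3 UMIs.

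All 6 genes were detected in few cells, mostly with 1 UMI. Slc15a2 was detected in 0.877% [0.641, 1.17] of IL31RAKO T cells and 2.28% [1.92, 2.69] of WT T cells, and in 0.757% and 2.05% of macrophages, which were gated on C1q genes and had median depths of 3114.5 and 2259.5 UMIs. St8sia1 was detected in 4.62% and 7.06% of T cells and in 3.88% and 2.51% of macrophages. For the genes found mainly in T cells the macrophage shares were low: Asic3 was detected in 3.12% of IL31RAKO and 4.95% of WT T cells against 0.303% and 0.799% of macrophages. Mturn was detected in 5.67% and 8.72% of T cells and 1.46% and 1.37% of macrophages. Kcnc1 was detected in 2.01% and 2.73% of T cells and in 0.252% of IL31RAKO macrophages, with 0 of 876 WT macrophages, an interval that reaches 0.420%. B3galt2 was detected in 0.994% and 1.75% of T cells and in 0.252% and 0.228% of macrophages.

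Asic3 stood apart in how many UMIs a cell held. Of the T cells with Asic3, 50 of 160 in IL31RAKO and 90 of 299 in WT held 2 or more UMIs, and the highest cell held 8 in IL31RAKO and 9 in WT. The mean was 1.66 UMIs per detecting cell in IL31RAKO and 1.63 in WT. For the other members that mean lay between 1.04 and 1.13, and no cell held more than 4 UMIs. Most of their UMIs thus came from different cells, while 19.2% of the IL31RAKO and 13.96% of the WT UMIs of Asic3 came from 10 cells each. After each T cell was thinned to 1000 UMIs, leaving out 306 IL31RAKO and 366 WT T cells that were shallower, Asic3 was detected in 1.04% and 1.92%, Mturn in 1.82% and 2.68% and St8sia1 in 1.55% and 2.61%. Slc15a2 was then detected in 0.311% and 0.915%, Kcnc1 in 0.684% and 1.02% and B3galt2 in 0.352% and 0.616%.

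Within T cells the members had different places. Mturn was highest in the dermal gamma-delta and CD8 gates, Asic3 in the CD8 gate, and St8sia1 in the Cd7/Avil gate. The plot of levels by gate shows all 7 gates and macrophages.

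**Figure D1:**
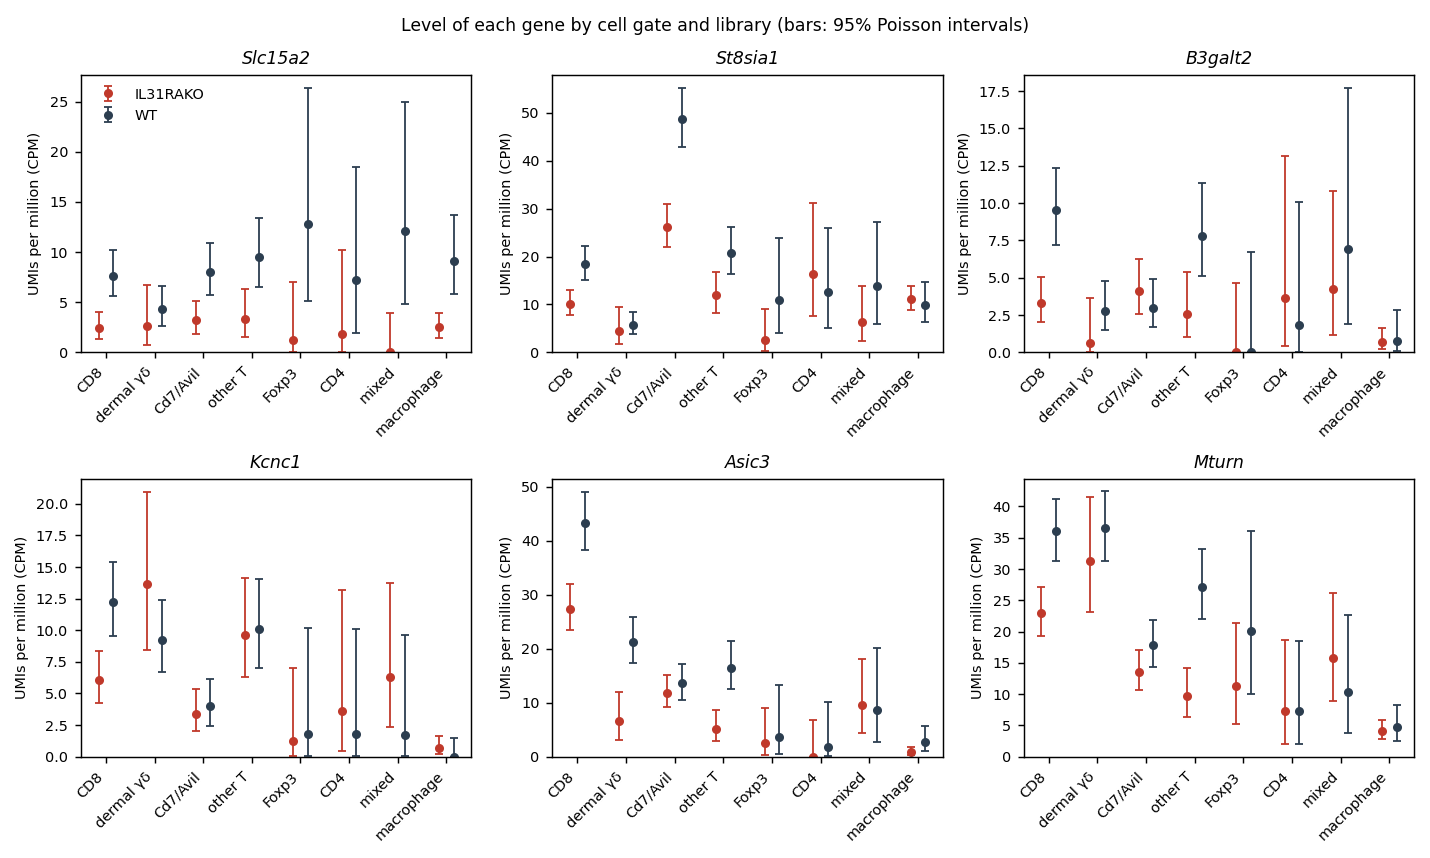
Level of each gene in CPM (vertical axis) in each T cell gate and in macrophages (horizontal axis), with IL31RAKO in red left of WT in dark blue; points are summed levels of 1 library and bars 95% Poisson intervals for counting error. Asic3 reaches 27.4 CPM in IL31RAKO and 43.3 CPM in WT cells of the CD8 gate, and St8sia1 26.2 and 48.7 CPM in the Cd7/Avil gate.

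Slc15a2 had no gate that stood out. In IL31RAKO its level lay between 2.46 CPM in the CD8 gate and 3.35 CPM in other T cells among the 4 larger gates, and in WT between 4.29 CPM in the dermal gamma-delta gate and 9.54 CPM in other T cells. The intervals of neighbouring gates overlapped throughout. Macrophages, at 2.49 CPM in IL31RAKO and 9.14 CPM in WT, lay within or near the same range.

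St8sia1 was highest in the part of the Cd7/Avil gate with Avil, the gene of the actin-binding protein advillin. There it had 61.0 CPM [47.9, 76.6] in IL31RAKO and 81.0 CPM [68.2, 95.5] in WT, against 15.9 and 31.5 CPM in the part without Avil. The Cd7/Avil gate held 54.1% of the T cell UMIs of St8sia1 in IL31RAKO and 51.7% in WT. The dermal gamma-delta gate was the lowest of the 4 larger gates, with 4.56 CPM in IL31RAKO and 5.79 CPM in WT, and its intervals did not reach those of the Cd7/Avil gate. Outside T cells, dendritic cells had 25.9 CPM in IL31RAKO and 31.4 CPM in WT, and macrophages 11.2 and 9.94 CPM. Langerhans cells, 33 in IL31RAKO and 46 in WT, had 4 and 10 UMIs of it.

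B3galt2 was low in every gate. In WT its highest levels among the larger gates were 9.52 CPM in CD8 and 7.80 CPM in other T cells, with overlapping intervals, and in IL31RAKO 4.14 CPM in the Cd7/Avil gate and 3.28 CPM in CD8. Cells with Avil held 1 UMI of it in each library. The CD8 gate held 35.7% of its T cell UMIs in IL31RAKO and 48.3% in WT. The Foxp3 gate held 0 UMIs in both libraries.

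Kcnc1 had 13.7 CPM in the dermal gamma-delta gate, 9.66 CPM in other T cells, 6.08 CPM in CD8 and 3.39 CPM in the Cd7/Avil gate in IL31RAKO. In WT the order was CD8 with 12.2 CPM, other T cells with 10.1 CPM, dermal gamma-delta with 9.23 CPM and Cd7/Avil with 4.00 CPM. The intervals of CD8, other T cells and dermal gamma-delta overlapped in WT. The Cd7/Avil gate was thus the lowest of the 4 in both libraries, and the first place differed.

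Asic3 was highest in the CD8 gate, which held 63.0% of its T cell UMIs in IL31RAKO and 52.4% in WT. Its level there was 27.4 CPM in IL31RAKO and 43.3 CPM in WT. The next in IL31RAKO was the Cd7/Avil gate with 11.9 CPM, while in WT the dermal gamma-delta gate came next with 21.2 CPM. Within the Cd7/Avil gate, cells with Avil had 1.65 CPM in IL31RAKO and 6.90 CPM in WT, against 14.9 and 17.1 CPM in cells without it. Asic3 was thus higher without Avil and St8sia1 higher with it. The 2 genes still shared the part without Avil, where St8sia1 had 15.9 CPM in IL31RAKO and 31.5 CPM in WT.

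Mturn had 31.3 CPM in the dermal gamma-delta gate and 23.0 CPM in CD8 in IL31RAKO, and 36.5 and 36.0 CPM in WT. Those gates did not differ beyond their intervals in either library. The Cd7/Avil gate was lower, with 13.6 CPM in IL31RAKO and 17.8 CPM in WT. Other T cells had 9.66 CPM in IL31RAKO and 27.2 CPM in WT, which put them last of the larger gates in the first library and before the Cd7/Avil gate in the other.

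In all T cells together, each of the 6 genes had a lower level in IL31RAKO than in WT, as the choice of members fixes. Slc15a2 had 47 UMIs (2.62 CPM) in IL31RAKO and 156 UMIs (7.54 CPM) in WT, a ratio of 0.348 [0.245, 0.485], the lowest of the 6. St8sia1 had 14.3 CPM in IL31RAKO and 22.8 CPM in WT (0.629 [0.538, 0.733]), and B3galt2 3.12 and 5.61 CPM (0.557 [0.398, 0.773]). Kcnc1, with 6.19 and 8.36 CPM, had the ratio nearest to 1 (0.741 [0.578, 0.946]). Asic3 had 14.8 CPM in IL31RAKO and 23.5 CPM in WT (0.628 [0.539, 0.731]), and Mturn 17.5 and 28.3 CPM (0.619 [0.538, 0.711]). By a fold of 1.5 or more, 5 of the 6 were lower, where 4.45% of the 11990 genes with 30 or more UMIs were, and none was higher, where 5.26% were. The median log2 ratio was −0.68 over the 6 genes and −0.05 over all genes tested, which describes how the members were chosen.

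The counts of lower genes differed between the gates, and the difference between gates was not tested. The T cell gates are parts of the T cells in which the members were chosen as lower. Their counts therefore describe that choice and do not stand apart from it. In CD8 cells 6 of 6 genes were lower by 1.5-fold or more (4.54% of all genes tested there), and in other T cells 5 of 6 (6.79%). In those other T cells the neutrophil markers summed to 3223 CPM in IL31RAKO and 452 CPM in WT, and the skeletal muscle markers to 55.4 and 7.51 CPM; their part in the count was not tested. In the Cd7/Avil gate 2 of 6 were (7.08%), and in the dermal gamma-delta gate 1 of the 4 members with enough UMIs (11.3%). No tested member was higher by that fold in CD8 (4.94% of genes), other T (6.16%), Cd7/Avil (4.59%) or dermal gamma-delta cells (7.64%). Among macrophages 3 members had enough UMIs; Slc15a2 was lower (5.29%) and none higher (6.99%). No member had 30 UMIs in the Foxp3, CD4 or mixed gate. The plot of ratios by gate shows which genes made these counts.

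**Figure D2:**
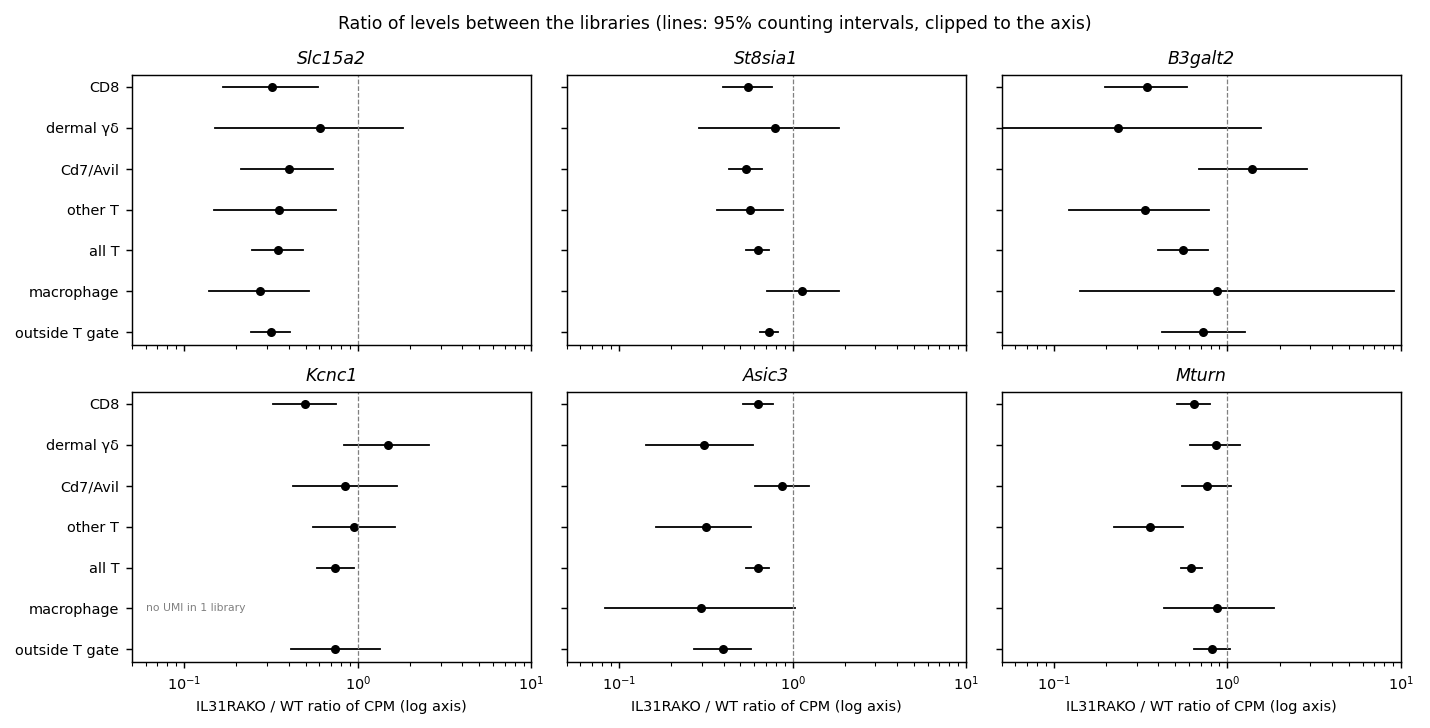
Ratio of levels, IL31RAKO over WT (log axis), of each gene in 4 T cell gates, all T cells, macrophages and all cells outside the T gate; points are ratios of CPM and lines 95% counting intervals, clipped at the axis ends. Slc15a2 lies left of 1 in every row, St8sia1 in macrophages (1.13), B3galt2 in the Cd7/Avil gate (1.38) and Kcnc1 in the dermal gamma-delta gate (1.48) lie right of it. Kcnc1 has no point in macrophages because WT had 0 UMIs.

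For Slc15a2 the low ratio was also found outside T cells. It was 0.608 [0.151, 1.81] in dermal gamma-delta cells, 0.322 [0.167, 0.589] in CD8, 0.400 [0.213, 0.723] in the Cd7/Avil gate and 0.351 [0.148, 0.749] in other T cells. In macrophages it was 0.272 [0.138, 0.527], from 18 UMIs in IL31RAKO and 23 in WT, in dendritic cells 0.193 [0.0321, 0.844] from 3 and 7, and in neutrophils 0.127 [0.0252, 0.589] from 4 and 5. All cells outside the T gate had 2.19 CPM in IL31RAKO and 6.93 CPM in WT, a ratio of 0.316 [0.243, 0.407]. The contrast outside T cells was not part of the choice of members, and it gave a ratio inside the interval of the T cell ratio. Of the classes above, dermal gamma-delta cells alone had an interval that includes 1.

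St8sia1 had ratios of 0.555 [0.399, 0.765] in CD8, 0.537 [0.433, 0.664] in the Cd7/Avil gate and 0.572 [0.365, 0.878] in other T cells. In the Cd7/Avil gate, cells without Avil had a ratio of 0.503 [0.363, 0.692] and those with Avil one of 0.753 [0.561, 1.01]. Outside the T gate the ratio was 0.734 [0.652, 0.828]. It was 1.13 [0.711, 1.84] in macrophages and 0.824 [0.541, 1.27] in dendritic cells, both with intervals that include 1.

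B3galt2 was lower in CD8 cells, with 20 UMIs in IL31RAKO and 56 in WT (3.28 and 9.52 CPM, 0.345 [0.196, 0.584]), and in other T cells, with 7 and 27 UMIs (0.333 [0.123, 0.785]). In the Cd7/Avil gate it had 22 UMIs in IL31RAKO and 15 in WT (1.38 [0.685, 2.86]). The intervals of the CD8 and Cd7/Avil ratios did not overlap. In Cd7/Avil cells without Avil, with 21 and 14 UMIs, the ratio was 1.19 [0.579, 2.54], and that interval overlapped the CD8 interval. Its overlapping neighbour Cdc73 had a ratio of 0.953 [0.748, 1.21] in CD8 cells.

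Kcnc1 had 6.08 CPM in IL31RAKO and 12.2 CPM in WT in CD8 cells (0.497 [0.325, 0.748]). In dermal gamma-delta cells it had 13.7 and 9.23 CPM (1.48 [0.837, 2.56]), from 21 and 43 UMIs. The ratios of other T cells, 0.956 [0.552, 1.63], and of the Cd7/Avil gate, 0.848 [0.423, 1.69], lay near 1. The CD8 gate was thus the gate in which Kcnc1 had an interval below 1, and it did not overlap that of the dermal gamma-delta gate.

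Among the 4 larger T cell gates, Asic3 was lowest relative to WT in dermal gamma-delta cells, with 10 UMIs in IL31RAKO and 99 in WT (6.52 and 21.2 CPM, 0.307 [0.143, 0.588]), and in other T cells, with 14 and 57 UMIs (0.316 [0.163, 0.574]). In CD8 cells, with 167 and 255 UMIs, it was at 0.633 [0.518, 0.772]. In the Cd7/Avil gate it had 63 UMIs in IL31RAKO and 68 in WT (0.873 [0.610, 1.25]). Outside the T gate, at 1.15 and 2.90 CPM, the ratio was 0.397 [0.272, 0.576].

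Mturn followed another order. In other T cells it had 26 UMIs in IL31RAKO and 94 in WT (0.356 [0.221, 0.554]), and in CD8 cells 140 and 212 (0.638 [0.512, 0.794]). In dermal gamma-delta cells, at 31.3 and 36.5 CPM, the ratio was 0.858 [0.609, 1.19], and in the Cd7/Avil gate 0.762 [0.551, 1.05]. Outside the T gate it was 0.815 [0.645, 1.03].

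Il17a also differed between the libraries, but not in the same direction in every gate. Its ratio of IL31RAKO over WT was 0.699 [0.688, 0.710] in all T cells. It was 1.27 [1.22, 1.32] in the Cd7/Avil gate and 1.46 [1.29, 1.65] in the mixed gate, and below 1 in the other gates. Within the Cd7/Avil gate it was 0.832 [0.725, 0.955] in cells with Avil and 1.16 [1.12, 1.21] in cells without. Cells with Avil numbered 382 of 1389 in IL31RAKO and 591 of 1497 in WT. The part of this mix in the ratio of the gate was not tested. Cells with 1 or more Il17a UMIs made up 46.4% [45.04, 47.8] of T cells in IL31RAKO and 59.2% [57.9, 60.4] in WT, and those with 5 or more 21.5% and 30.1%. In dermal gamma-delta cells the share with 1 or more was 56.9% and 83.9%, in CD8 cells 62.6% and 73.1%, and in the Cd7/Avil gate 41.6% in both libraries. The share of Cd7/Avil cells with 5 or more was 19.2% in IL31RAKO and 13.4% in WT. Macrophages, which should not make it, had an Il17a UMI in 17.1% and 20.2% of cells, but 5 or more UMIs in 0.0505% and 0.114%. At 1000 UMIs per cell Il17a was found in 32.4% and 44.5% of T cells and in 5.51% and 8.16% of macrophages. A single Il17a UMI is therefore weak evidence that a cell makes it, and the class with 5 or more UMIs is given beside it.

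Detection with Il17a divided the 6 genes. Reading the genes with Il17a was set when they were named, although this contrast itself did not choose them. The contrast need not be independent of that choice, also because Il17a-positive cells were 46.4% of T cells in IL31RAKO and 59.2% in WT. The counts below are therefore descriptions. Asic3, Kcnc1 and Mturn had higher levels in Il17a-positive than in Il17a-negative T cells of both libraries, B3galt2 did so in WT, and St8sia1 and Slc15a2 had lower levels. For Slc15a2 in WT the lower level was not seen at like depth, where few UMIs were left, so its absence is not shown. By a fold of 1.5, 3 of 6 members were higher in IL31RAKO (4.26% of 10900 genes tested) and 4 of 6 in WT (5.8% of 11060), and 2 of 6 were lower in each (9.44% and 11.8%). Il17a-positive T cells were deeper, with median depths of 3277 UMIs in IL31RAKO and 3130 in WT, against 2428 and 2360 in Il17a-negative cells. Shares of cells at like depth are given below for Asic3 and Slc15a2. Within CD8 cells, Kcnc1 and Asic3 were higher in both libraries (5.69% of genes in IL31RAKO and 7.39% in WT), and St8sia1 was lower in IL31RAKO (6.93%) while none was in WT (8.0%). In the Cd7/Avil gate, Asic3 and Mturn were higher (6.37% and 7.03%) and St8sia1 lower (12.7% and 12.4%) in both. In dermal gamma-delta cells 1 member had enough UMIs in IL31RAKO, with none higher (10.1%) or lower (8.08%), and 3 did in WT, with Asic3 higher (14.1%) and none lower (12.8%). In other T cells the 1 member tested in IL31RAKO was neither higher (6.63%) nor lower (9.5%), and of 5 in WT Kcnc1, Asic3 and Mturn were higher (6.69%) and Slc15a2 lower (7.67%).

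**Figure D3:**
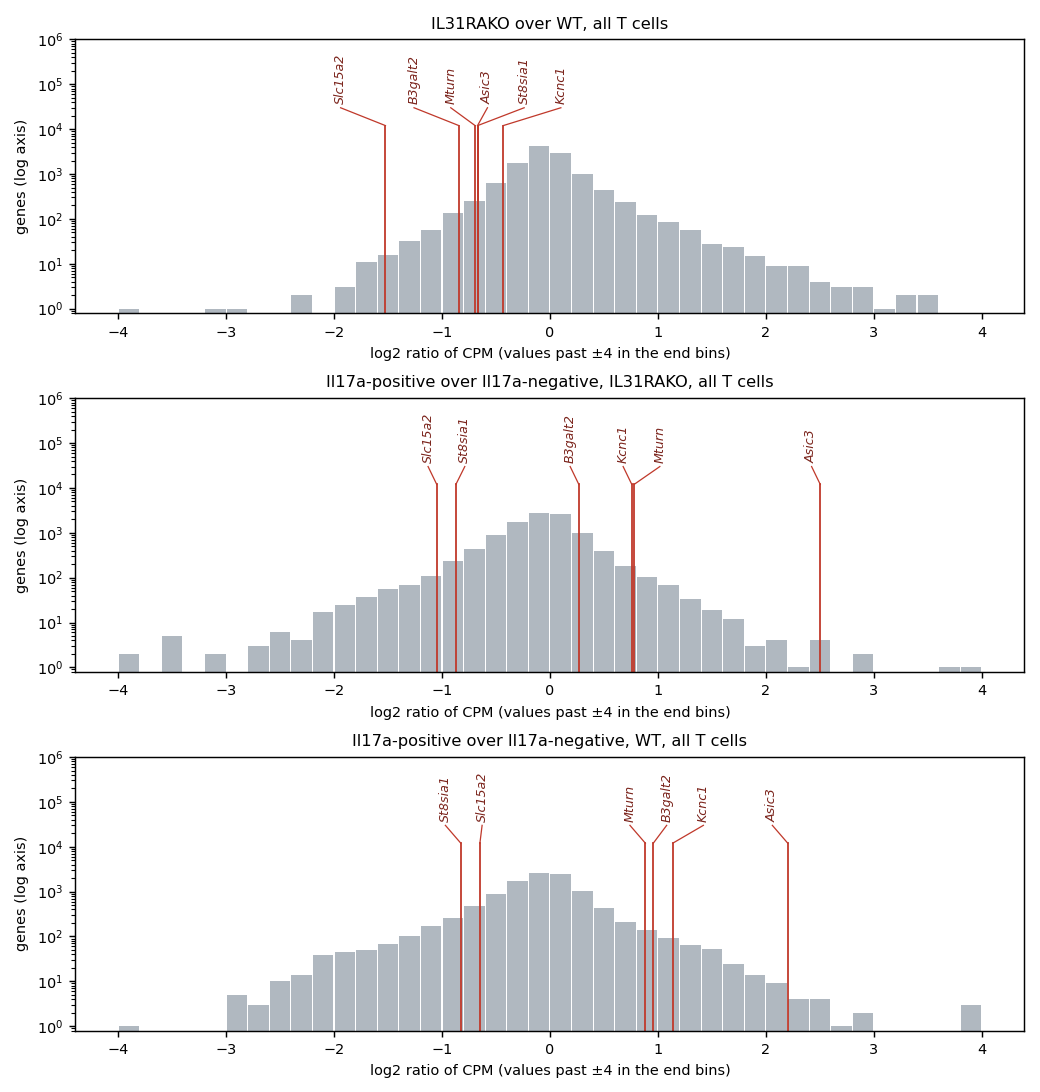
Distribution of log2 ratios of CPM (horizontal axis) over all genes with 30 or more UMIs (vertical axis, number of genes on a log scale), for IL31RAKO over WT and for Il17a-positive over Il17a-negative T cells of each library; red lines mark the 6 genes. Asic3 lies far to the right in both Il17a panels (ratios of 5.67 in IL31RAKO and 4.60 in WT), and Slc15a2 and St8sia1 lie left of 0.

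Asic3 had 23.1 CPM in Il17a-positive and 4.08 CPM in Il17a-negative T cells of IL31RAKO, a ratio of 5.67 [3.91, 8.48], and 31.5 and 6.85 CPM in WT, a ratio of 4.60 [3.39, 6.38]. In cells with 5 or more Il17a UMIs its level was 31.8 CPM in IL31RAKO and 39.8 CPM in WT. Inside the gates it was 5.84 [3.18, 11.9] in IL31RAKO and 3.71 [2.33, 6.28] in WT CD8 cells, and 7.87 [3.58, 20.5] and 12.5 [5.08, 39.8] in the Cd7/Avil gate. It was smaller in WT dermal gamma-delta cells, at 2.79 [1.05, 10.4], and in WT other T cells, at 20.8 and 10.4 CPM (2.00 [1.09, 3.88]), while in IL31RAKO the intervals of both gates, 2.06 [0.411, 19.9] and 1.40 [0.418, 4.67], included 1. Of the Il17a-positive T cells, 5.50% in IL31RAKO and 7.40% in WT had an Asic3 UMI, against 1.05% and 1.38% of the negative ones. At 1000 UMIs per cell, with Il17a also read after thinning, those shares were 2.18% and 3.17%, against 0.490% and 0.920%.

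Kcnc1 had 7.54 CPM in Il17a-positive and 4.46 CPM in Il17a-negative T cells of IL31RAKO (1.69 [1.12, 2.60]) and 10.2 and 4.62 CPM in WT (2.20 [1.48, 3.36]). In CD8 cells the ratios were 3.40 [1.21, 13.2] in IL31RAKO and 2.39 [1.14, 5.78] in WT. In dermal gamma-delta cells they were 0.468 [0.178, 1.21] and 0.891 [0.3503, 2.90]. Both intervals of that gate include 1, and no higher level of Kcnc1 in its Il17a-positive cells was detectable.

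Mturn had 21.4 CPM in Il17a-positive and 12.5 CPM in Il17a-negative T cells of IL31RAKO (1.72 [1.35, 2.20]) and 33.3 and 18.0 CPM in WT (1.85 [1.51, 2.27]). Among the 4 larger gates the ratio was largest in the Cd7/Avil gate, with 2.09 [1.25, 3.60] in IL31RAKO and 3.21 [1.94, 5.51] in WT. In CD8 cells it was 1.34 [0.897, 2.04] and 1.25 [0.882, 1.80], and in dermal gamma-delta cells 0.939 [0.504, 1.81] and 0.832 [0.525, 1.38]. Those 4 intervals include 1. In dermal gamma-delta cells Mturn had 30.6 CPM in IL31RAKO and 35.7 CPM in WT where Il17a was detected, against 32.6 and 42.9 CPM where it was not.

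B3galt2 had 3.37 CPM in Il17a-positive and 2.80 CPM in Il17a-negative T cells of IL31RAKO (1.20 [0.684, 2.16]) and 6.65 and 3.43 CPM in WT (1.94 [1.22, 3.21]). The interval of the IL31RAKO ratio holds both 1 and the WT ratio. In CD8 cells the ratios were 1.65 [0.532, 6.77] in IL31RAKO and 1.37 [0.684, 3.06] in WT.

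St8sia1 ran the other way. It had 10.5 CPM in Il17a-positive and 19.2 CPM in Il17a-negative T cells of IL31RAKO (0.547 [0.422, 0.706]) and 18.2 and 32.3 CPM in WT (0.564 [0.469, 0.679]). In the Cd7/Avil gate, cells with 5 or more Il17a UMIs had 9.61 CPM in IL31RAKO and 15.0 CPM in WT, against 36.1 and 58.6 CPM in cells with none, ratios of 0.267 [0.137, 0.478] and 0.256 [0.137, 0.444]. In CD8 cells the ratio of cells with 1 or more Il17a UMIs to those with none was 0.610 [0.357, 1.06] in IL31RAKO and 1.24 [0.762, 2.10] in WT. The intervals thus lay below 1 in the Cd7/Avil gate and included 1 in CD8 cells. Cells with Avil, where St8sia1 was highest, were Il17a-positive in 22.8% of IL31RAKO and 29.6% of WT cells.

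Slc15a2 had 1.79 CPM in Il17a-positive and 3.70 CPM in Il17a-negative T cells of IL31RAKO (0.483 [0.253, 0.900]) and 6.37 and 9.98 CPM in WT (0.638 [0.459, 0.889]). At 1000 UMIs per cell the WT shares of cells with a UMI were 0.910% and 0.920%, and the levels had a ratio of 0.998. In WT CD8 cells the ratio was 1.20 [0.565, 2.82]. The lower level of Slc15a2 with Il17a in WT was thus not seen at like depth. Few UMIs were left after thinning, and no interval is given for that ratio. Il17a was also read after thinning, so some Il17a-positive cells counted as negative. The thinned values therefore cannot show that the lower level is absent.

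**Figure D4:**
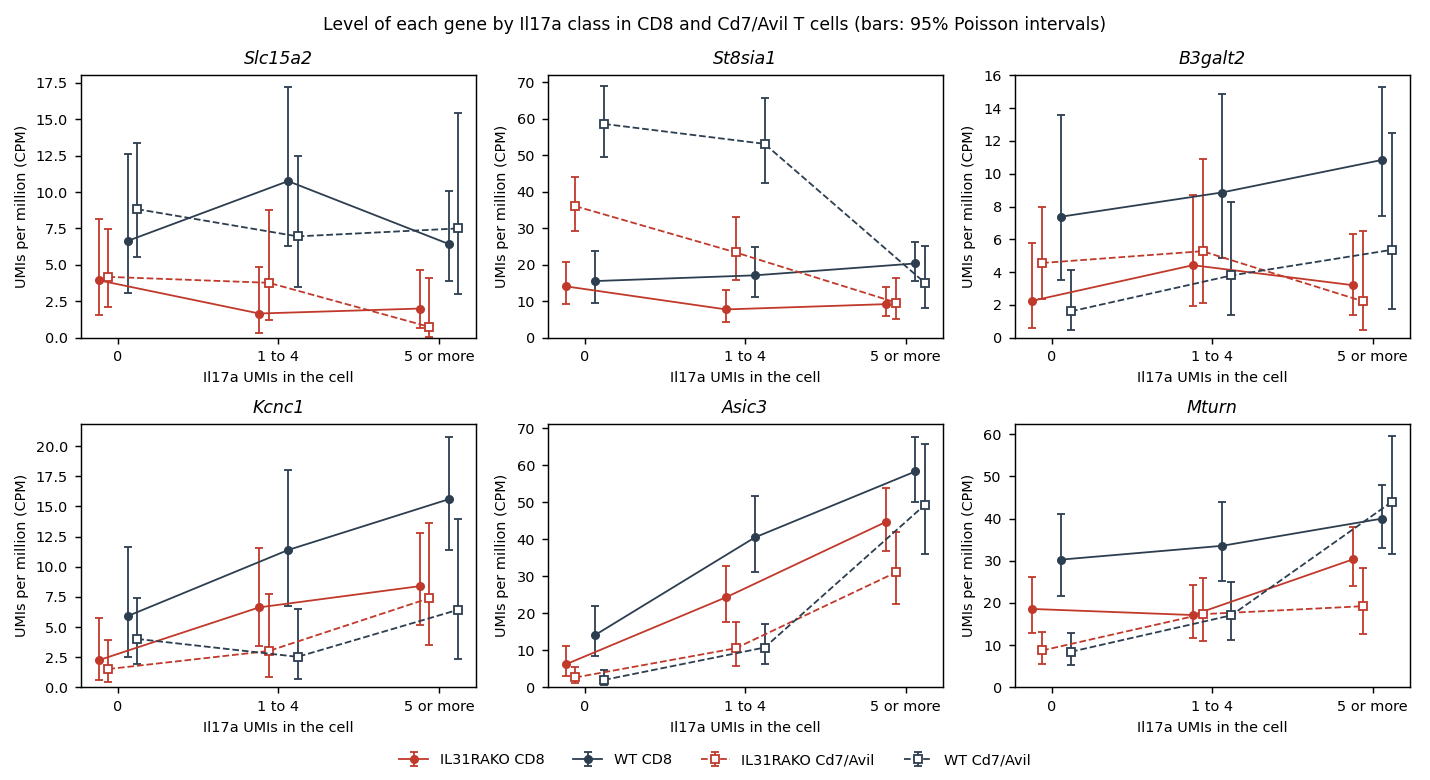
Level of each gene in CPM (vertical axis) in T cells with 0, 1 to 4 and 5 or more Il17a UMIs (horizontal axis), for CD8 cells (filled circles, solid lines) and the Cd7/Avil gate (open squares, dashed lines), IL31RAKO in red and WT in dark blue; bars are 95% Poisson intervals. In CD8 cells Asic3 reaches 44.7 CPM in IL31RAKO and 58.3 CPM in WT at 5 or more Il17a UMIs, against 6.19 and 14.03 CPM at 0, while St8sia1 in the Cd7/Avil gate is lowest at 5 or more.

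The differences between the libraries were also read at like Il17a class. Among T cells with 5 or more Il17a UMIs, 1105 in IL31RAKO and 1821 in WT, Slc15a2 had a ratio of 0.307 [0.124, 0.664], B3galt2 one of 0.344 [0.168, 0.650] and St8sia1 one of 0.650 [0.449, 0.929]. Mturn had 26.2 CPM in IL31RAKO and 38.9 CPM in WT (0.673 [0.546, 0.826]), Asic3 31.8 and 39.8 CPM (0.80 [0.659, 0.968]) and Kcnc1 8.53 and 11.4 CPM (0.745 [0.509, 1.08]). Within cells with no Il17a UMI the ratios were 0.370 [0.231, 0.580] for Slc15a2, 0.595 [0.480, 0.736] for St8sia1, 0.595 [0.367, 0.955] for Asic3 and 0.693 [0.525, 0.912] for Mturn. For B3galt2, at 0.818 [0.435, 1.54], and Kcnc1, at 0.966 [0.578, 1.62], that interval included 1. When IL31RAKO levels were averaged with the WT mix of gates and Il17a classes, the 6 ratios lay between 0.310 for Slc15a2 and 0.805 for Kcnc1. Single gates and classes also held ratios above 1, all with intervals that include 1, among them B3galt2 in Cd7/Avil cells with no Il17a UMI, at 2.84 [0.860, 12.1], and Kcnc1 in dermal gamma-delta cells with none, at 2.06 [0.661, 7.58]. For Kcnc1 over all T cells the interval included 1 in each of the 3 Il17a classes.

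Few T cells held more than 1 of the 6 genes. None was detected in 84.2% of IL31RAKO and 75.7% of WT T cells, 1 in 14.5% and 21.2%, 2 in 1.27% and 2.83%, and 3 in 5 IL31RAKO and 12 WT cells. The pair found together most often was Asic3 with Mturn, in 23 IL31RAKO and 52 WT cells. T cells with an Asic3 UMI had 32.8 CPM of Mturn in IL31RAKO and 47.8 CPM in WT, against 16.7 and 27.0 CPM in those without, ratios of 1.97 [1.30, 2.87] and 1.77 [1.34, 2.31]. Within CD8 cells the ratios were 1.78 [1.05, 2.87] and 1.63 [1.06, 2.42]. T cells with an Mturn UMI had less St8sia1 than those without, 7.72 against 14.9 CPM in IL31RAKO (0.517 [0.255, 0.942]) and 8.32 against 24.8 CPM in WT (0.335 [0.206, 0.519]). Those cells were deeper, with medians of 3922 against 2759 UMIs in IL31RAKO and 3677 against 2721 in WT. Within IL31RAKO CD8 cells, Mturn in cells with a St8sia1 UMI over those without had a ratio of 0.791 [0.253, 1.89], which includes 1. The part of the mix of gates in this pair was not tested. In WT, cells with B3galt2 had more Kcnc1, 24.3 against 8.04 CPM (3.02 [1.42, 5.70]), from 10 cells, while in IL31RAKO 2 cells held both. Kcnc1 and Slc15a2 shared 1 T cell in IL31RAKO and 0 in WT.

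The genes most like each member were ranked by the correlation of log2(CPM + 5) over the 7 gates of both libraries, 14 points that share libraries, gate sizes and depth. Asic3 was most like Tomm7 (r = 0.942), Tmem260 (0.936) and Zc3h12c (0.903), and its r with Il17a was 0.840. Kcnc1 was most like Bloc1s6 (0.927), St6galnac3 (0.915) and Rasa4 (0.903), with 0.780 for Il17a. Mturn was most like Il1r1 (0.886), the receptor of interleukin-1 found on type 17 cells, Ppp1r14c (0.870) and Mmd (0.854), with 0.697 for Il17a. B3galt2 was most like Runx2 (0.887), a transcription factor, Socs7 (0.879) and Tbc1d31 (0.831), with 0.560 for Il17a. St8sia1 was most like Ptpn12 (0.898), Slc26a11 (0.876) and Ctsw (0.861), the gene of a protease of cytotoxic lymphocytes, with 0.183 for Il17a. Slc15a2 was most like Pigyl (0.855), Nmt1 (0.829) and Wdr89 (0.825), with 0.0402 for Il17a. The order by likeness to Il17a, Asic3 first and Slc15a2 last, is a description over few and unequal gates.

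Other genes of the members' pathways were counted in T cells from lists. Slc15a2, St8sia1, B3galt2, Kcnc1 and Asic3 are in these lists, and their lower level in this contrast was fixed by the choice of members. List counts and medians include them. Where a member alone was lower, the count therefore describes that choice. Of the 7 genes for peptide transport and sensing, all with 30 or more UMIs, Slc15a2 alone was lower by 1.5-fold and 0 were higher. Slc15a3, a lysosomal peptide transporter, had 100 CPM in IL31RAKO and 124 CPM in WT (0.811), and Nod2, a sensor of bacterial cell wall peptides, 1.84 and 1.31 CPM (1.41 [0.823, 2.44]). Of 11 ganglioside synthesis genes 9 were tested, and St8sia1 alone was lower. The next farthest from 1 was B4galt6, a lactosylceramide synthase, with 5.30 CPM in IL31RAKO and 3.82 CPM in WT (1.39 [1.02, 1.90]). B4galnt1, the enzyme that leads to GM2 and GD2, had 94.7 CPM in IL31RAKO and 92.2 CPM in WT (1.03), and St3gal5, which makes the precursor GM3, 6.42 and 5.90 CPM (1.09); both were set beside St8sia1 after their values were seen. Of the 8 genes of ganglioside breakdown none was lower or higher by 1.5-fold; Gm2a, the GM2 activator, had 361 and 280 CPM (1.29). Of the 8 beta-1,3-galactosyltransferase genes and their relatives 6 were tested, and B3galt2 alone was lower. The list medians were −0.04, 0.04, 0.14 and 0.03 on the log2 scale, beside −0.05 over all genes tested, of which 4.45% were lower and 5.26% higher.

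Of 14 potassium channel genes 9 were tested, and the 1 lower by 1.5-fold was Kcnma1, the gene of the calcium-activated BK channel, with 3.57 CPM in IL31RAKO and 6.43 CPM in WT (0.556 [0.406, 0.754]). Kcnk1 and Kcnk5, of the background potassium channels, had ratios of 0.715 and 0.744. Of 13 genes for acid-sensing channels and proton receptors 5 were tested, and Asic3 alone was lower; Asic2, Asic4 and Asic5 had 0 UMIs in T cells of both libraries, and Asic1 had 1 in each. Gpr65, a proton-sensing receptor of lymphocytes, had 74.7 CPM in IL31RAKO and 80.8 CPM in WT (0.924). Of 12 type 17 genes 1 was lower by 1.5-fold, Il17f, with 756 and 1142 CPM (0.661), beside Il17a at 0.699. The median log2 ratios of those 3 lists were −0.19, −0.11 and −0.07.

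Against Il17a, the same lists put the members beside other genes. In Il17a-positive over Il17a-negative T cells, Il1r1 had ratios of 2.23 [1.70, 2.95] in IL31RAKO and 2.80 [2.16, 3.68] in WT, and Gpr65 1.54 [1.37, 1.73] and 1.90 [1.69, 2.15]. Asic3, at 5.67 and 4.60, lay between Il17f, at 7.68 and 7.69, and Il22, at 3.39 and 3.96. Of the 9 tested ganglioside synthesis genes, 2 were lower by 1.5-fold in IL31RAKO and 4 in WT (9.44% and 11.8% of all genes tested), and 0 were higher (4.26% and 5.8%). Ugcg, the first enzyme of the pathway, had 14.5 CPM in Il17a-positive and 31.0 CPM in Il17a-negative cells of IL31RAKO (0.468 [0.378, 0.577]) and 16.4 and 35.5 CPM in WT (0.462 [0.384, 0.556]). B4galnt1 was at 0.645 [0.589, 0.707] in WT. Slc15a3 had 135 CPM in Il17a-positive and 56.1 CPM in Il17a-negative cells of IL31RAKO (2.40 [2.16, 2.68]) and 154 and 60.8 CPM in WT (2.53 [2.28, 2.82]). Kcnma1 was at 0.354 [0.198, 0.613] in IL31RAKO and 0.178 [0.118, 0.264] in WT.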

How the data were processed

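The deposited files were raw UMI counts per gene and barcode, 1 matrix of 27998 genes and 737280 barcodes per library, with no normalization by the authors. Cell Ranger 3.1, Seurat 3.2.2 and build mm10 are named in the submitters' processing notes, with no role given. Libraries were made with version 2 of a 10x 3′ kit from 30000 loaded cells, per the labels' protocols. Cells were filtered on UMIs, genes and mitochondrial share, gated by markers and not clustered, so gates may differ from the cell types of the study. Doublets stayed in. An alternative removed those with the highest Scrublet scores (scanpy 1.11.5; 11.7% of IL31RAKO and 9.54% of WT cells). UMIs were summed per gate and scaled to CPM with numpy 2.4.6, scipy 1.17.1 and pandas 2.3.3. Levels have exact Poisson intervals, shares exact Clopper-Pearson intervals and ratios exact conditional binomial intervals, each at 95% and for counting error only. The ratio script was tested on simulated data of the 2 libraries, where 95.1% of 11887 genes had an interval holding the true ratio. Genes counted as higher or lower were those with 30 or more UMIs and a fold of 1.5 or more.

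The genes named were the 6 members, Il17a, the genes of 7 pathway lists (up to 3 per list farthest from a ratio of 1, besides those set beside a member after their values were seen) and the 3 genes most alike to each member among those with 200 or more UMIs. Members and lists were chosen with earlier results of these data known. The split by Avil and the dendritic, Langerhans and neutrophil gates, the lists by Il17a and the mixes of gates were added after the data had been seen.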

Additional observations from a re-analysis of the deposited data

Results flagged for a closer look

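Ratios of IL31RAKO over WT ran in opposite directions between T cell gates for B3galt2 and Kcnc1, and the difference between gates was not tested. B3galt2 was at 1.38 [0.685, 2.86] in the Cd7/Avil gate, against 0.345 in CD8 and 0.333 in other T cells. In cells of the Cd7/Avil gate without Avil it was at 1.19 [0.579, 2.54]. Kcnc1 was at 1.48 [0.837, 2.56] in the dermal gamma-delta gate, against 0.848 in the Cd7/Avil gate, 0.497 in CD8 and 0.956 in other T cells. The intervals given here for ratios above 1 all include 1.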

How the results depend on the processing

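No paired analysis was possible because each genotype was 1 library. The 6 ratios between the libraries in T cells were recomputed under 72 alternatives (12 per gene: doublets removed, other limits on UMIs, mitochondrial share and CD3, free RNA subtracted, other scaling, the richest cell left out, averaging over cells, thinning, shared barcodes left out and the WT mixes), and 0 reversed. Of them 70 lay inside the interval of the reported value. The exceptions were Asic3, at 0.502 as a mean over cells and 0.497 after thinning to 1000 UMIs, against 0.628. At 5 or more Il17a UMIs, 60 of 60 stayed inside the interval. Of 132 alternatives for the ratio of Il17a-positive to Il17a-negative T cells, 130 did and 0 reversed; the exceptions in WT were Slc15a2 after thinning, at 0.998 against 0.638, and St8sia1 at 5 or more Il17a UMIs, at 0.415 against 0.564. The causes were not tested. At a fold of 2, the counts of lower genes in T cells became 0 for ganglioside synthesis, beta-1,3-galactosyltransferases, potassium channels, acid-sensing channels and type 17 genes, each 1 at a fold of 1.5, while the share of all genes that were lower became 1.03%, against 4.45%. Depth limits the Foxp3, CD4 and mixed gates, in which no member had 30 UMIs.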

Other observations

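Of the 18 genes most alike to the members, Ppp1r14c, an inhibitor of protein phosphatase 1 and the second closest to Mturn, had the lowest ratio between the libraries in T cells, with 25.6 CPM in IL31RAKO and 49.0 CPM in WT (0.523 [0.467, 0.584]), and was at 0.70 [0.590, 0.829] in CD8 cells. St6galnac3, a sialyltransferase alike to Kcnc1 over the gates, had 55.6 and 52.3 CPM (1.06 [0.974, 1.16]).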
